A study of Sus scrofa with 16 samples.

Results

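The genes described here are transcription factors that define the hormone-producing lineages of the pituitary. The list named 8 of them: PITX1, LHX3, POU1F1, NEUROD4, GATA2, NR5A1, TBX19 and PAX7. It was chosen by name and not by level, but with earlier results of these data known. The count table held 25880 genes and 7 of the 8 factors were matched in it, each to 1 row. PITX1 is not analysed here. All 7 passed the filter on low counts, which kept 14319 genes, and all 7 are followed below.

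RNA was sequenced from whole pituitaries of 16 female pigs of the Puławska breed. The 8 gilts of the low feed conversion group (LFC, replicates 1 to 8) used less feed per unit of body gain than the 8 of the high feed conversion group (HFC, replicates 9 to 16). Per the labels all gilts were 3 months old, and the age at slaughter stated in the methods of the study is higher. No gilt was treated, all came from the same test station, and the methods describe them as unrelated animals from different farms. A whole gland holds anterior, intermediate and posterior lobe tissue, so fewer cells of a type and less RNA per cell cannot be told apart in these values. The extraction note of the labels speaks of fat. The summed level of the 6 hormone genes GH1, PRL, TSHB, FSHB, CGA and POMC was nevertheless between 83896 and 256956 counts per 1000000 counts of the library (CPM) in every library, and all 6 were detected, as in pituitary tissue.

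The anterior pituitary arises from a pouch of oral ectoderm. PITX1 and LHX3 act early and in most of its cells. Later factors split the lineages: POU1F1 (also called PIT-1) is needed for cells that make growth hormone, prolactin and thyrotropin, GATA2 works in thyrotropin and gonadotropin cells, NR5A1 (also called SF-1) in gonadotrophs, and TBX19 (also called TPIT) in the cells that express POMC. PAX7 directs POMC cells to the melanotroph fate of the intermediate lobe, where the prohormone convertase encoded by PCSK2 cuts the POMC product into melanotropin. NEUROD4 is a basic helix-loop-helix factor linked to the maturation of growth hormone cells.

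The libraries held between 10.973 and 23.06 M counts. On the first principal component of log2 CPM, which held 41.8% of the variance, LFC replicate 5 and HFC replicates 13 and 14 stood apart. On the second, with 18.65%, HFC replicate 16 lay farthest out. These 4 libraries were left out together in the checks below. The summed level of 8 posterior lobe markers, all 8 detected, fell into a lower range of 27.5 to 41.2 CPM in 8 libraries (5 LFC and 3 HFC) and an upper range of 112 to 469 CPM in the other 8 (3 LFC and 5 HFC, among them the 4 that stood apart). Its medians were 40.8 CPM in LFC and 119 CPM in HFC (exact permutation test, two-sided p = 0.179). HFC replicate 14 also carried 17867 CPM of muscle and bone markers, nearly all from ACTA1, against 12.1 to 58.9 CPM in the other libraries. Correlations were therefore also computed within each range of 8 libraries.

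The first comparison asked whether the factors differed with feed conversion. Of the 7, PAX7 and TBX19 were higher in HFC at an unadjusted p-value and the other 5 were not. None of the 7 was called at the thresholds of the study (adjusted p at or under 0.05, and at least a 1.3-fold change). Over all 14319 genes edgeR's quasi-likelihood test called 0 genes (0%), while 834 genes (5.82%) had an unadjusted p under 0.05 and DESeq2 called 6 genes, none of them among the 7 factors. Of those 834, 615 genes (4.29% of all tested) were higher in HFC and 219 genes (1.53%) lower. Among the 7 factors, 2 had an unadjusted p under 0.05, both higher in HFC. The log2 fold changes of HFC against LFC were above 0 for 3 factors and below 0 for 4, with a median of -0.18 against -0.01 over all genes. In each of the 7 the groups overlapped, as they did for all but 0.021% of genes.

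**Figure D1:**
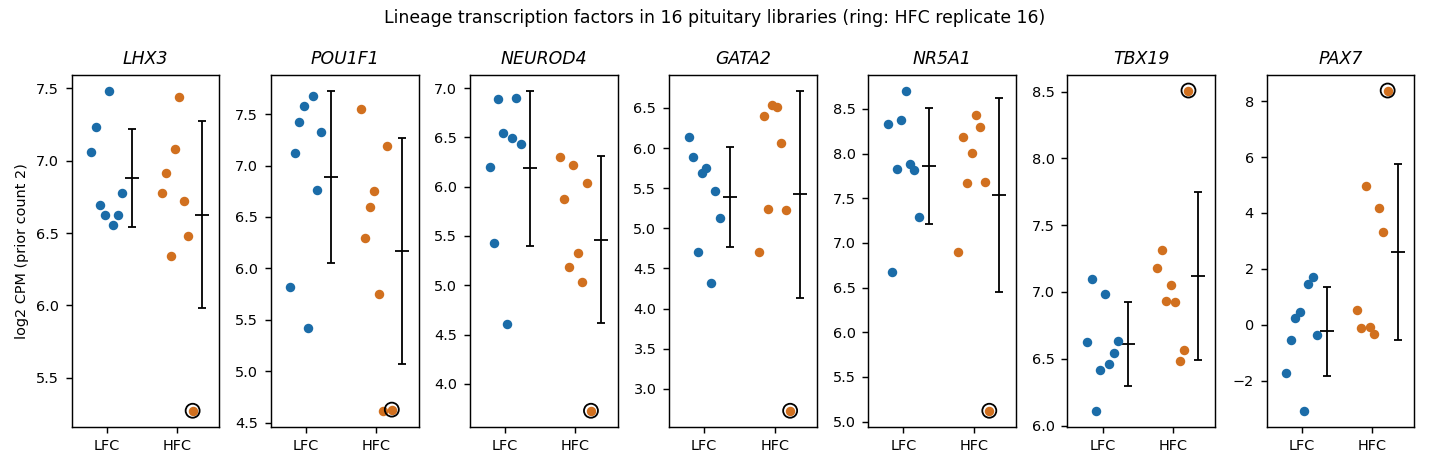
Level of each factor in log2 CPM (y axis, own scale per gene) in the 8 LFC (blue) and 8 HFC (orange) libraries; each point is 1 library and the bar beside it is the mean with SD. The ring marks HFC replicate 16, which was lowest for LHX3, NEUROD4, GATA2 and NR5A1 and highest for TBX19 and PAX7.

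**Figure D2:**
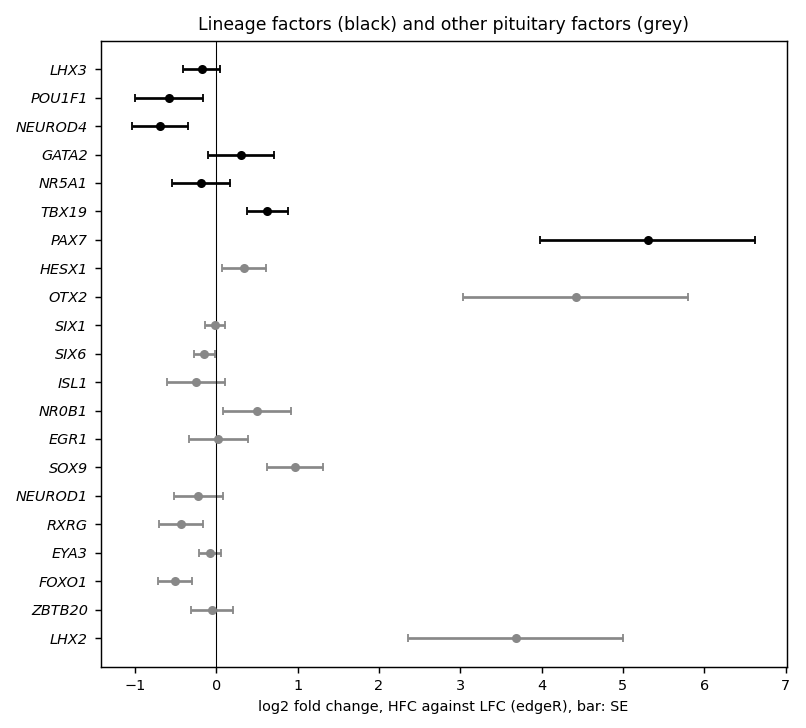
Log2 fold change of HFC against LFC from edgeR, with its SE, for the 7 lineage factors (black) and 14 other pituitary factors tested (grey). PAX7 at 5.31, OTX2 at 4.42 and LHX2 at 3.68 lie far to the right and have the widest bars, and the rest lie between -0.70 and 0.97.

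LHX3 (ENSSSCG00000034657, on an unplaced sequence of Sscrofa11.1) varied least among the factors together with TBX19. It was at 94.0 CPM in the lowest LFC library, 107 CPM at the median and 179 CPM in the highest. The HFC libraries ran from 38.5 CPM through a median of 107 CPM to 174 CPM. HFC replicate 16 lay far below the other 15 libraries, the next of which was HFC replicate 11 at 80.9 CPM. The log2 fold change was -0.18 (SE 0.23), and the difference in mean log2 CPM was -0.25 (exact permutation p = 0.377), which was -0.06 without HFC replicate 16. The SD of LHX3 over the 16 libraries, 0.52 log2 units, stood at the 62.4th percentile of all genes.

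LHX3 passed with 2 of the 3 glycoprotein hormone genes, TSHB and CGA, and not with FSHB. With TSHB, the thyrotropin beta subunit, Pearson's r over the 16 libraries was 0.868 (permutation p = 2e-05, adjusted p over 42 pairs of factor and hormone gene = 0.00028) and Spearman's rho was 0.797 (permutation p = 0.00044, adjusted p = 0.00616). Without LFC replicate 5 and HFC replicate 16, the libraries farthest from the median of LHX3, r was 0.72 (permutation p = 0.00403). It was 0.741 within LFC, 0.891 within HFC, 0.844 in the 8 libraries low in posterior lobe markers and 0.880 in the 8 high ones. TSHB itself spanned a wide range, from 0.06 CPM in HFC replicate 16, 1.35 CPM in HFC replicate 11 and 5.91 CPM in HFC replicate 15 to 1548 CPM in LFC replicate 5. The same HFC replicates 16, 11 and 15 were the lowest 3 libraries for LHX3.

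With CGA, the common alpha subunit of the glycoprotein hormones, LHX3 had r = 0.859 (permutation p = 0.00049, adjusted p = 0.00343), but rho was 0.565 (permutation p = 0.0257, adjusted p = 0.0899). This relation rested on few libraries. Without LFC replicate 5 and HFC replicate 16, r was 0.532 (permutation p = 0.0505), and in the libraries low in posterior lobe markers it was -0.03. LHX3 did not pass with GH1 (r = 0.154, adjusted p = 0.62), PRL (0.508, adjusted p = 0.0916), FSHB (0.454, adjusted p = 0.133) or POMC (-0.245, adjusted p = 0.416). For all 4 the sign of r changed when HFC replicate 16 was left out. With POMC r was 0.868 within LFC and -0.691 within HFC, a difference that was not tested.

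POU1F1 (ENSSSCG00000011996, chr13:168510671-168530394 of Sscrofa11.1) ranged over 8.36-fold. The LFC libraries lay at 42.6 CPM at the lowest, 150 CPM at the median and 204 CPM at the highest. In HFC these values were 24.4, 87.4 and 187 CPM. The lowest libraries of all were HFC replicates 14 and 16, at 24.4 and 24.6 CPM, and the next was LFC replicate 5. The log2 fold change was -0.58 (SE 0.41), and the mean log2 CPM differed by -0.72 (exact permutation p = 0.161), so a group difference was not established. POU1F1 was lower where the posterior lobe markers were high. It was at 108 to 204 CPM in the 8 libraries low in these markers and at 24.4 to 109 CPM in the 8 high ones. With the marker range as a covariate, the log2 fold change was -0.28 (SE 0.28). Within the high libraries r with the log2 marker sum was -0.818 and rho -0.762 (exact permutation p of r = 0.0187, adjusted p over 14 such relations = 0.262), and within the low ones r was 0.257 and rho 0.381 (exact permutation p = 0.539, adjusted p = 0.681). The part of posterior lobe tissue in the POU1F1 results was not tested further.

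Among the hormone genes that POU1F1 is known to activate, GH1 and PRL followed it and TSHB did not pass. For GH1, which encodes growth hormone, r was 0.754 (permutation p = 0.0009, adjusted p = 0.00472) and rho 0.609 (permutation p = 0.014, adjusted p = 0.0652). Without HFC replicates 14 and 16, r was 0.547 (permutation p = 0.0419). It was 0.873 within LFC and 0.706 within HFC, but 0.180 among the libraries low in posterior lobe markers against 0.690 among the high ones. For PRL, which encodes prolactin, r was 0.73 (permutation p = 0.00129, adjusted p = 0.00602) and rho 0.591 (permutation p = 0.0182, adjusted p = 0.0693). The PRL relation rested on HFC replicates 14 and 16, without which r was 0.439 (permutation p = 0.116). After centring on the 2 marker ranges neither GH1 (r = 0.574) nor PRL (r = 0.579) passed (adjusted p = 0.162 for both). For TSHB, r was -0.009 over all libraries (permutation p = 0.974) and rho -0.444 (permutation p = 0.0883), and r without HFC replicate 16 was -0.523.

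The receptors of the releasing hormones for these cells also passed with POU1F1. POU1F1 had r = 0.715 with GHRHR, the receptor for growth hormone-releasing hormone (permutation p = 0.00181, adjusted p over 63 pairs of factor and lineage gene = 0.0114), and rho was 0.635 (permutation p = 0.00948, adjusted p = 0.0459). Without HFC replicates 14 and 16 this r was 0.477 (permutation p = 0.0847). With TRHR, the receptor for thyrotropin-releasing hormone, r was 0.725 (permutation p = 0.00161, adjusted p = 0.0113) and rho 0.697 (permutation p = 0.00379, adjusted p = 0.0254), and without these libraries r was 0.749 (permutation p = 0.00171). In the libraries low in posterior lobe markers the 2 values of r were 0.260 and 0.199. By r over all libraries POU1F1 ranked 105th from the top among 14318 genes with GHRHR, but 2241st with TRHR. Many other genes thus followed TRHR more closely.

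NEUROD4 (ENSSSCG00000035778, chr5:20046864-20057380) was at 24.3 CPM in the lowest LFC library, 88.1 CPM at the median and 119 CPM in the highest. In HFC it ran from 13.1 CPM through 49.3 CPM to 78.8 CPM. The lower values of HFC were shared by 6 of 8 libraries, which lay below the LFC mean of log2 CPM. The log2 fold change of -0.70 (SE 0.34) did not pass (edgeR adjusted p = 0.877; exact permutation p = 0.0987 for a difference of -0.72). With the posterior lobe marker range as a covariate it was -0.62 (SE 0.32). NEUROD4 was also lower where these markers were high, with a median of 82.4 CPM in the 8 libraries low in them and 38.2 CPM in the 8 high ones. Within the low libraries its r with the log2 marker sum was -0.111 and rho 0.095 (exact permutation p = 0.779, adjusted p over the 14 relations = 0.839), and within the high ones r was -0.584 and rho -0.714 (exact permutation p = 0.141, adjusted p = 0.539).

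NEUROD4 and POMC ran opposite to each other across all 16 libraries. Pearson's r was -0.912 (permutation p = 1e-05, the smallest the resamples could give; adjusted p = 0.00028) and rho was -0.941 (permutation p = 1e-05, adjusted p = 0.00021). By r with POMC NEUROD4 ranked 3rd from the bottom among 14318 genes. The relation was -0.829 without LFC replicate 5 and HFC replicate 16 (permutation p = 0.00019), -0.750 without the 4 libraries that stood apart, -0.795 within LFC and -0.991 within HFC. It was -0.679 in the libraries low in posterior lobe markers and -0.979 in the high ones. POMC encodes the precursor of corticotropin and melanotropin and reached 243007 CPM in HFC replicate 16, where NEUROD4 was lowest, against 5926 to 77318 CPM elsewhere. POMC was at 5926 to 32172 CPM in the libraries low in posterior lobe markers and at 18908 to 243007 CPM in the high ones, and the part of posterior lobe tissue in this relation was not tested beyond these values. Because POMC took a large share of some libraries, the scaling was repeated without the 10 most abundant genes, and the named pairs kept their calls.

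POU1F1 shared this pattern with a smaller r. Its r with POMC was -0.835 (permutation p = 2e-05, adjusted p = 0.00028) and rho -0.885 (permutation p = 1e-05, adjusted p = 0.00021). Without HFC replicates 14 and 16, r was -0.776 (permutation p = 0.00101). The r was -0.654 among the libraries low in posterior lobe markers and -0.740 among the high ones. POU1F1 and NEUROD4 followed each other, with r = 0.796 (permutation p = 0.00024, adjusted p over 21 pairs of factors = 0.00252) and rho = 0.803 (permutation p = 0.0002, adjusted p = 0.0021). That r was 0.666 without HFC replicates 14 and 16 (permutation p = 0.00973) and 0.356 without the 4 libraries that stood apart. NEUROD4 did not pass with GH1 (r = 0.539, permutation p = 0.0299, adjusted p = 0.066; rho = 0.415, permutation p = 0.113). It passed with TRHR (r = 0.629, permutation p = 0.00879, adjusted p = 0.0461; rho = 0.741, permutation p = 0.00149, adjusted p = 0.0165), at 0.632 without LFC replicate 5 and HFC replicate 16 (permutation p = 0.014). This r was 0.317 without the 4 libraries that stood apart and 0.107 in the libraries low in posterior lobe markers. By r with TRHR over all libraries NEUROD4 ranked 3279th from the top among 14318 genes.

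**Figure D3:**
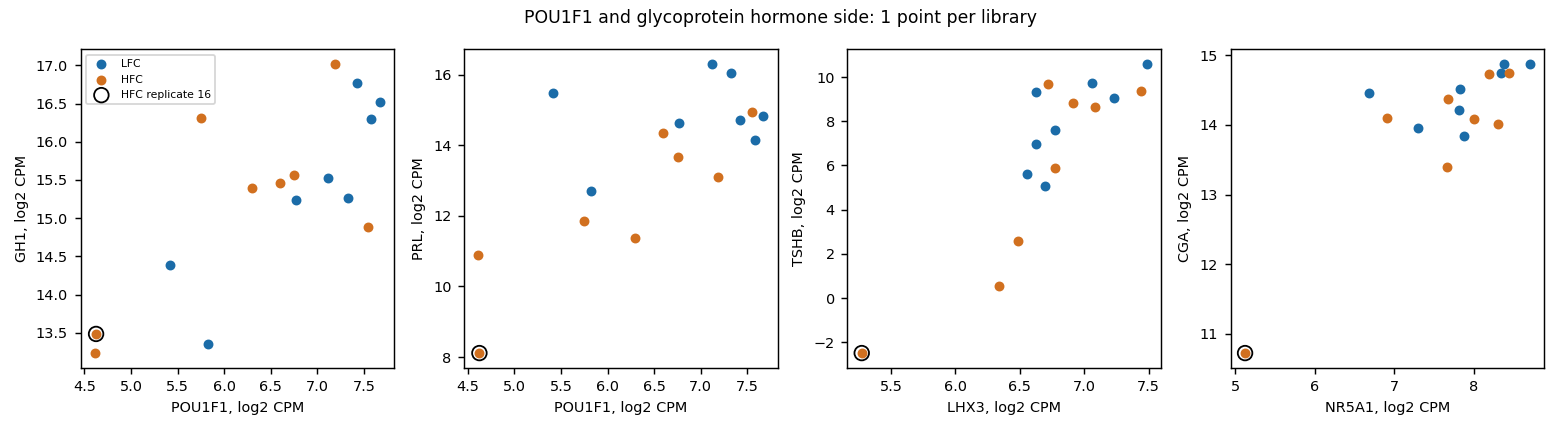
Log2 CPM of a hormone gene (y axis) against a factor (x axis), 1 point per library, for POU1F1 with GH1 and PRL, LHX3 with TSHB and NR5A1 with CGA. HFC replicate 16 (ring) lies at or near the lower left in each panel, and the LHX3 and TSHB points still rise without it (r = 0.749).

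GATA2 (ENSSSCG00000011618, chr13:71984067-71999729) ranged over 14.2-fold. It was at 19.9 CPM in the lowest, 47.8 CPM in the median and 70.4 CPM in the highest LFC library. In HFC the lowest was 6.50 CPM, the median 52.3 CPM and the highest 92.4 CPM. HFC held both the lowest library, replicate 16, and the highest 3, replicates 12, 13 and 10. The difference in mean log2 CPM was 0.04 (exact permutation p = 0.943), and without HFC replicate 16 it was 0.43 (exact permutation p = 0.243).

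NR5A1 (ENSSSCG00000005588, chr1:265284491-265311547) was at 102, 231 and 417 CPM in the lowest, median and highest LFC library and at 34.7, 231 and 347 CPM in HFC. The mean log2 CPM differed by -0.33 (exact permutation p = 0.524), and by 0.02 without HFC replicate 16 (exact permutation p = 0.955). The log2 fold change of edgeR was -0.19 (SE 0.36) with that library and -0.03 (SE 0.27) without it.

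Both factors followed CGA and TSHB, and neither passed with FSHB. For GATA2 and TSHB r was 0.794 (permutation p = 0.00061, adjusted p = 0.00366) and rho 0.715 (permutation p = 0.0026, adjusted p = 0.0273), with r = 0.616 when LFC replicate 6 and HFC replicate 16 were left out (permutation p = 0.0175). The relation was 0.823 within LFC and 0.870 within HFC. For GATA2 and CGA r was 0.791 (permutation p = 0.00296, adjusted p = 0.0104) and rho 0.515 (permutation p = 0.0429, adjusted p = 0.139). It rested on the same 2 libraries, without which r was 0.357 (permutation p = 0.209). For NR5A1 and CGA r was 0.827 (permutation p = 0.00267, adjusted p = 0.0102) and rho 0.682 (permutation p = 0.00427, adjusted p = 0.0359), with 0.622 when LFC replicate 2 and HFC replicate 16 were left out (permutation p = 0.0171). For NR5A1 and TSHB r was 0.677 (permutation p = 0.00767, adjusted p = 0.0248) and rho 0.641 (permutation p = 0.00881, adjusted p = 0.0463), with 0.549 without these libraries (permutation p = 0.0419). Both NR5A1 relations leaned on HFC replicate 16. Without it alone r was 0.456 for NR5A1 with CGA and 0.344 for NR5A1 with TSHB. Without the 4 libraries that stood apart these were 0.371 and 0.107.

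In the libraries low in posterior lobe markers r was 0.603 for GATA2 with TSHB, 0.305 for GATA2 with CGA, 0.279 for NR5A1 with CGA and -0.229 for NR5A1 with TSHB, against 0.851 to 0.976 in the high ones, which include HFC replicate 16. The difference between the ranges was not tested. With FSHB, the follitropin beta subunit, GATA2 had r = 0.363 (permutation p = 0.167, adjusted p = 0.226) and NR5A1 0.424 (permutation p = 0.104, adjusted p = 0.15). Both fell below 0 without HFC replicate 16, to -0.154 and -0.107.

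GATA2 and NR5A1 had r = 0.762 with each other (permutation p = 0.00295, adjusted p = 0.0124) and rho = 0.621 (permutation p = 0.012, adjusted p = 0.0632), at 0.134 within LFC and 0.970 within HFC, a difference that was not tested. Without LFC replicate 2 and HFC replicate 16, r was 0.642 (permutation p = 0.0131). It was 0.450 without HFC replicate 16 alone and 0.340 without the 4 libraries that stood apart. In the libraries low in posterior lobe markers it was 0.106. Both factors ran opposite to DRD2, the dopamine receptor of prolactin cells and melanotrophs. For NR5A1 and DRD2 r was -0.840 (permutation p = 5e-05, adjusted p = 0.00157), rho -0.774 (permutation p = 0.00048, adjusted p = 0.0151) and r without the 2 outer libraries -0.681 (permutation p = 0.00787). For GATA2 and DRD2 these values were -0.835 (permutation p = 9e-05, adjusted p = 0.00189), -0.738 (permutation p = 0.00157, adjusted p = 0.0165) and, without LFC replicate 6 and HFC replicate 16, -0.769 (permutation p = 0.00154). In the libraries low in posterior lobe markers r with DRD2 was -0.813 for NR5A1 but -0.310 for GATA2. In the high ones these were -0.868 and -0.970. DRD2 was at 490 CPM in HFC replicate 16 and at 38.9 to 179 CPM elsewhere.

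TBX19 (ENSSSCG00000006299, chr4:82663121-82699261) was higher in HFC before adjustment. The LFC libraries lay at 69.0 CPM at the lowest, 95.8 CPM at the median and 137 CPM at the highest, and the HFC libraries at 89.1, 127 and 364 CPM. HFC replicate 16 lay far above the rest, and the next highest library, HFC replicate 10, was at 159 CPM. The other HFC libraries lay largely within the range of LFC. For TBX19 edgeR gave a log2 fold change of 0.62 (SE 0.25) at an adjusted p of 0.753, and the mean log2 CPM was higher by 0.51 (exact permutation p = 0.0392). In HFC, 6 of 8 libraries exceeded the mean of LFC. When HFC replicate 16 was left out the log2 fold change was 0.31 and the exact permutation p 0.0746. With the posterior lobe marker range as a covariate the log2 fold change was 0.53 (SE 0.26).

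TBX19 passed with POMC, its known target, but with a smaller r than NEUROD4 and POU1F1 had in the opposite direction. Pearson's r was 0.736 (permutation p = 0.00202, adjusted p = 0.00848) and rho 0.594 (permutation p = 0.0174, adjusted p = 0.0693). The relation rested on LFC replicate 3 and HFC replicate 16, without which r was 0.385 (permutation p = 0.174). It was 0.743 within LFC and 0.657 within HFC, and -0.408 in HFC without replicate 16. By r with POMC TBX19 ranked 322nd from the top among 14318 genes. With CRHR1, the corticotroph receptor for corticotropin-releasing hormone, r was 0.254 (permutation p = 0.355, adjusted p = 0.478) and rho 0.612 (permutation p = 0.014, adjusted p = 0.0631). Without LFC replicate 3 and HFC replicate 16 it was 0.624 (permutation p = 0.0194), without HFC replicate 16 alone 0.733, and within LFC 0.928. In HFC replicate 16, where TBX19 was highest, AVPR1B, the vasopressin receptor of corticotrophs, was at 2.41 CPM against 46.0 to 486 CPM in the other libraries. TBX19 and AVPR1B had r = -0.459 over all libraries (permutation p = 0.0753, adjusted p = 0.142; rho = 0.253, permutation p = 0.344) and 0.553 without HFC replicate 16.

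PAX7 (ENSSSCG00000034627, chr6:77160827-77268626) varied more than nearly any other gene, with an SD of 2.82 log2 units, at the 99.8th percentile of all genes. It was low in all LFC libraries, where replicates 1 to 8 had 3, 12, 17, 24, 0, 64, 71 and 13 counts. The HFC libraries had 20, 15, 639, 12, 7, 175, 156 and 5526 counts in replicates 9 to 16. HFC therefore fell into 4 libraries at LFC-like levels and 4 above every LFC library. The 4 were replicate 16 at 333 CPM, replicate 11 at 30.9 CPM, replicate 14 at 17.9 CPM and replicate 15 at 9.81 CPM, against at most 3.13 CPM in LFC. The count of 0 in LFC replicate 5 allows a level of up to 0.285 CPM. At these depths the low values rest on few counts.

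For PAX7 edgeR gave a log2 fold change of 5.31 (SE 1.32) at an adjusted p of 0.612. Levels went from 1.19 ± 1.13 CPM in LFC (SD, n = 8) to 49.4 ± 115 CPM in HFC (SD, n = 8). The mean log2 CPM was higher by 2.83 (exact permutation p = 0.0345), and 7 of 8 libraries of HFC exceeded the mean of LFC. HFC replicate 16 carried much of the fold. Without it the log2 fold change was 2.86 at an adjusted p of 0.953 in edgeR, and the exact permutation p was 0.0698. DESeq2 gave a log2 fold change of 2.75 (DESeq2 adjusted p = 0.167), and edgeR with the posterior lobe marker range as a covariate gave 3.81 (SE 1.51). PAX7 was higher in HFC in every fit that held it, and in none was it called after adjustment over all genes.

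PCSK2, the convertase of melanotrophs, followed PAX7 closely. Pearson's r was 0.959 (permutation p = 1e-05, adjusted p = 0.00063) and rho 0.897 (permutation p = 1e-05, adjusted p = 0.00063). It was 0.897 without HFC replicates 11 and 16 (permutation p = 1e-05), 0.961 without the 4 libraries that stood apart, 0.885 within LFC and 0.960 within HFC. The r was 0.959 in the libraries low in posterior lobe markers and 0.967 in the high ones. PCSK2 was at 2595, 299, 175 and 126 CPM in HFC replicates 16, 11, 14 and 15, the same order as PAX7, and at 2.47 to 27.3 CPM in the other 12 libraries. For PCSK2 edgeR gave a log2 fold change of 5.34 (SE 1.28) at an adjusted p of 0.612, and the exact permutation p for the mean log2 CPM was 0.0244. It was the 1 gene with an unadjusted edgeR p under 0.05 among the 9 lineage genes tested, 4 of which had a log2 fold change above 0 and 5 below. CHGB had a smaller exact permutation p of 0.00622, its mean log2 CPM differing by -0.35 and all 8 HFC libraries lying below the mean of LFC, at a log2 fold change of -0.32 and an adjusted p of 0.857 in edgeR.

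PAX7 did not pass with POMC (r = 0.430, permutation p = 0.0967, adjusted p = 0.145). The r was -0.819 within LFC and 0.776 within HFC, a difference that was not tested, and 0.018 without HFC replicate 16. PAX7 ran opposite to TSHB and CGA. With TSHB r was -0.806 (permutation p = 0.00048, adjusted p = 0.00343) and rho -0.653 (permutation p = 0.00708, adjusted p = 0.0463). This r was -0.459 without HFC replicates 11 and 16 (permutation p = 0.0979), yet -0.849 without the 4 libraries that stood apart, -0.885 in the libraries low in posterior lobe markers and -0.839 in the high ones. With CGA r was -0.831 (permutation p = 0.00019, adjusted p = 0.00199) and rho -0.650 (permutation p = 0.00833, adjusted p = 0.0463), at -0.545 without these 2 libraries (permutation p = 0.0433) and -0.016 in the low libraries. With FSHB it did not pass (r = -0.572, permutation p = 0.0217, adjusted p = 0.0569; rho = -0.435, permutation p = 0.0942), and r was 0.533 in the low libraries. With PRL r was -0.611 (permutation p = 0.0138, adjusted p = 0.0413) and rho -0.406 (permutation p = 0.12, adjusted p = 0.297), a relation that rested on HFC replicates 11 and 16 (r = -0.381 without them, permutation p = 0.183).

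Of the 9 lineage genes that are not hormones, 3 passed with PAX7, PCSK2 in the same direction and CHGB and AVPR1B in the opposite one. With CHGB, a granin of secretory granules, r was -0.861 (permutation p = 0.00012, adjusted p = 0.00189), rho -0.700 (permutation p = 0.0034, adjusted p = 0.0254) and r without HFC replicates 11 and 16 -0.607 (permutation p = 0.0196). With AVPR1B r was -0.794 (permutation p = 0.001, adjusted p = 0.00787), rho -0.688 (permutation p = 0.00403, adjusted p = 0.0254) and r without these libraries -0.504 (permutation p = 0.0648). In the libraries low in posterior lobe markers r was -0.413 for CHGB and -0.339 for AVPR1B, against -0.930 and -0.885 in the high ones. The other 6 did not pass, with r from -0.529 for CRHR1 to 0.459 for DRD2.

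**Figure D4:**
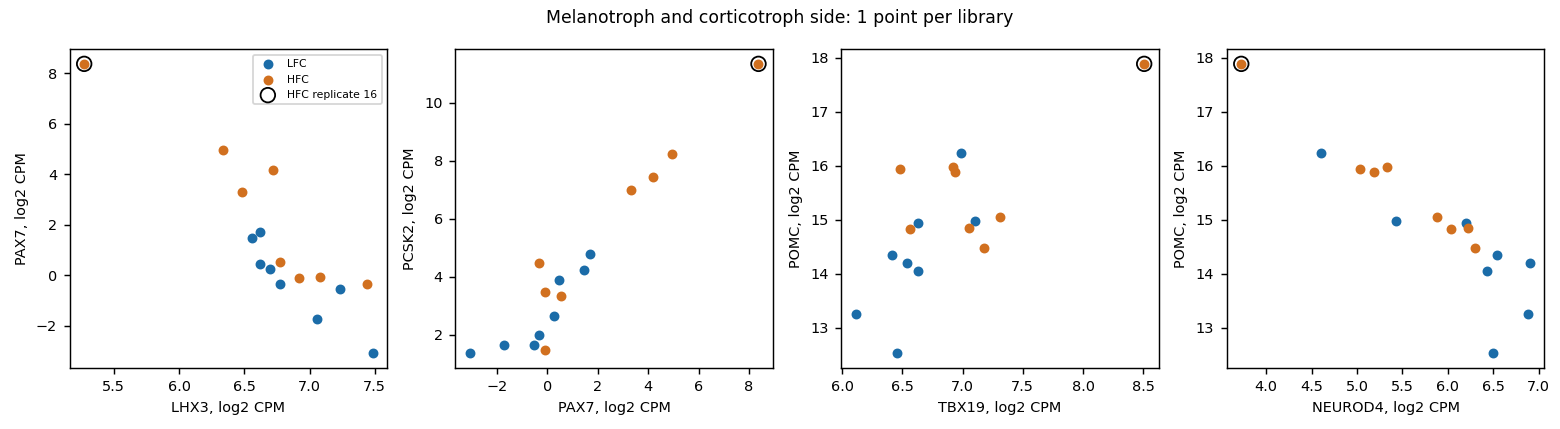
Log2 CPM of pairs on the POMC side of the gland, 1 point per library: PAX7 against LHX3, PCSK2 against PAX7, POMC against TBX19 and POMC against NEUROD4. HFC replicate 16 (ring) lies at a corner of every panel, and the remaining 15 libraries give r = -0.786, 0.928, 0.514 and -0.855 in this order.

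Among the factors themselves, LHX3 and PAX7 were the most opposed pair. Pearson's r was -0.891 (permutation p = 2e-05, adjusted p = 0.00042) and rho -0.876 (permutation p = 6e-05, adjusted p = 0.00126). The r was -0.715 without LFC replicate 5 and HFC replicate 16 (permutation p = 0.0043), -0.837 without the 4 libraries that stood apart, -0.899 within LFC and -0.924 within HFC. It was -0.738 in the libraries low in posterior lobe markers and -0.922 in the high ones. LFC replicate 5, with the highest LHX3 of all, had no PAX7 count, and HFC replicate 16 was lowest in LHX3 and highest in PAX7. LHX3 also ran opposite to PCSK2 (r = -0.800, permutation p = 0.00035, adjusted p = 0.00367; rho = -0.729, permutation p = 0.00209, adjusted p = 0.0188), at -0.560 without these 2 libraries (permutation p = 0.0369).

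LHX3 and GATA2 followed each other, with r = 0.826 (permutation p = 0.0004, adjusted p = 0.0028), rho = 0.694 (permutation p = 0.00385, adjusted p = 0.0269) and r = 0.668 without LFC replicate 5 and HFC replicate 16 (permutation p = 0.00919). Both followed AVPR1B. For LHX3 and AVPR1B r was 0.860 (permutation p = 0.00028, adjusted p = 0.00353), rho 0.765 (permutation p = 0.00098, adjusted p = 0.0154) and r without these libraries 0.623 (permutation p = 0.0177). For GATA2 and AVPR1B r was 0.827 (permutation p = 0.00064, adjusted p = 0.00576), rho 0.650 (permutation p = 0.00757, adjusted p = 0.0434) and r without LFC replicate 6 and HFC replicate 16 0.479 (permutation p = 0.0836).

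In all, 14 of the 42 pairs of factor and hormone gene passed by Pearson's r, 9 positive and 5 negative, and 8 of the 14 also passed by Spearman's rho. Of the 14, 8 kept a p of at most 0.05 without the 2 libraries farthest out, all 14 had the same sign within LFC and within HFC, and 12 had it in both ranges of posterior lobe markers. The 14 were picked by r over these same libraries, so the shared sign is no separate support. Only 5 of them had an exact permutation p of at most 0.05 both within LFC and within HFC. Without HFC replicate 16 alone, 6 of the 42 pairs passed. An absolute r of at least 0.5 with CGA was found for 6 of the 7 factors against 21.3% of all genes, with PRL for 5 against 11.4%, with TSHB for 4 against 16.9%, with POMC for 3 against 22.1%, with FSHB for 3 against 11.5% and with GH1 for 2 against 11.2%. These shares describe 7 genes that also correlate with each other, and those for CGA and FSHB lean on HFC replicate 16. Without it r with CGA was 0.606 for LHX3, -0.692 for PAX7 and -0.041 to 0.456 for the others of the 6. The 3 with FSHB fell to between -0.269 and 0.299. Of the 5 with PRL only POU1F1 (0.614) stayed above 0.5, while NR5A1 reached -0.571 and GATA2 -0.566. The 3 with POMC stayed at -0.855, -0.772 and 0.514, and GATA2 reached 0.676. All-gene shares were not computed without this library.

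Of the 21 pairs of factors, 9 passed, 4 positive and 5 negative, and 3 also passed by rho: LHX3 with PAX7, LHX3 with GATA2, and POU1F1 with NEUROD4. Another 5 of the 9 rested on the 2 libraries farthest out. For LHX3 with NR5A1 r was 0.700 (permutation p = 0.0113, adjusted p = 0.0357; rho = 0.459, permutation p = 0.0767) and 0.060 without them (permutation p = 0.839). TBX19 had r = -0.701 with NR5A1 (permutation p = 0.0136, adjusted p = 0.0357; rho = -0.356, permutation p = 0.177) and -0.253 without them (permutation p = 0.379). With NEUROD4 TBX19 had r = -0.729 (permutation p = 0.00245, adjusted p = 0.0124; rho = -0.574, permutation p = 0.0224) and -0.356 without them (permutation p = 0.208). PAX7 had r = -0.611 with NR5A1 (permutation p = 0.0188, adjusted p = 0.044; rho = -0.415, permutation p = 0.112) and -0.146 without them (permutation p = 0.619). With GATA2 PAX7 had r = -0.629 (permutation p = 0.012, adjusted p = 0.0357; rho = -0.494, permutation p = 0.0534) and -0.229 without them (permutation p = 0.435).

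Among the 63 pairs of factor and lineage gene 13 passed by r and 11 of these by rho as well. The 2 that passed by r alone were LHX3 with CHGB (r = 0.787, permutation p = 0.00327, adjusted p = 0.0187; rho = 0.468, permutation p = 0.071) and LHX3 with DRD2 (r = -0.651, permutation p = 0.0102, adjusted p = 0.0496; rho = -0.300, permutation p = 0.26). Without LFC replicate 5 and HFC replicate 16 these were 0.314 (permutation p = 0.274) and -0.417 (permutation p = 0.139). By rho 13 pairs passed. The 2 that passed by rho alone were LHX3 with CRHR1 (rho = 0.762, permutation p = 0.00085, adjusted p = 0.0154; r = 0.584, permutation p = 0.014, adjusted p = 0.0587) and PAX7 with CRHR1 (rho = -0.641, permutation p = 0.00906, adjusted p = 0.0459; r = -0.529, permutation p = 0.0335, adjusted p = 0.0844).

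**Figure D5:**
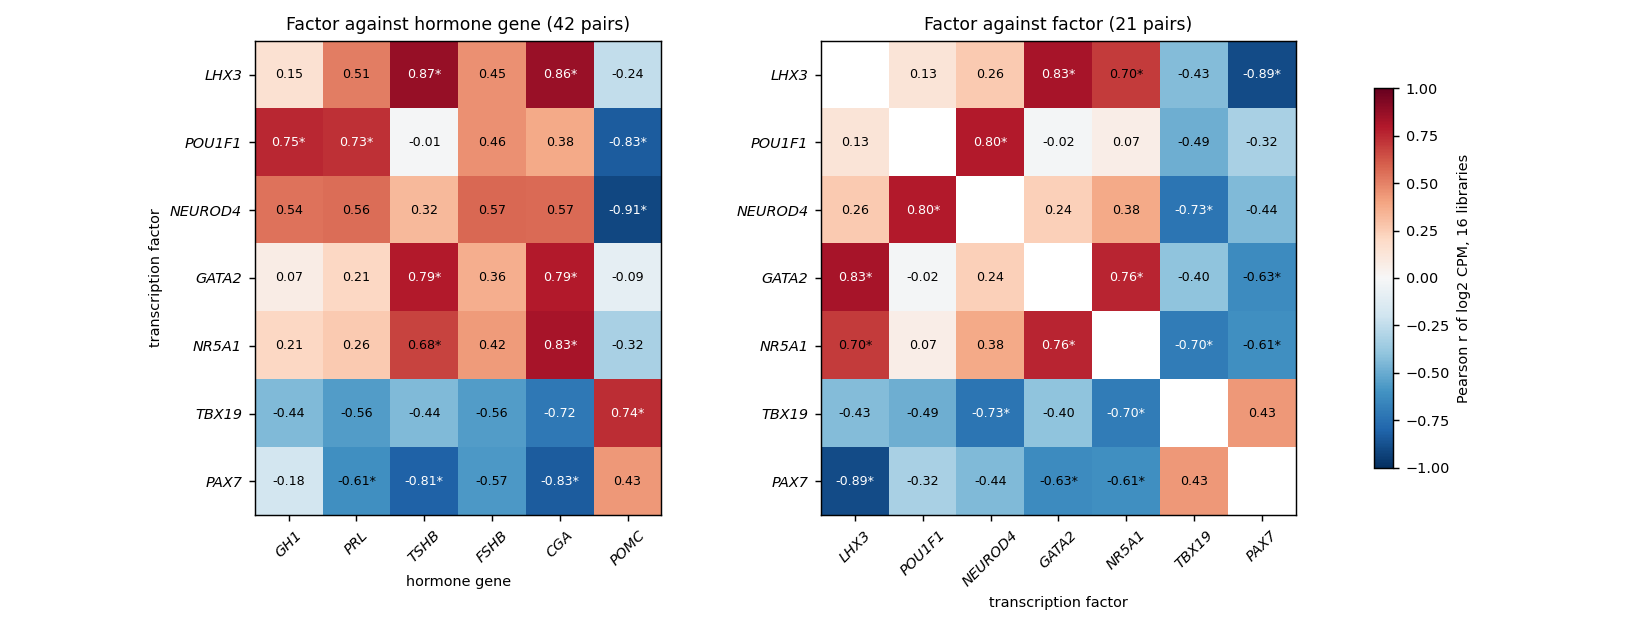
Pearson's r of log2 CPM over the 16 libraries between each factor and each hormone gene (left, 42 pairs) and between factors (right, 21 pairs); red is positive, blue negative, and an asterisk marks an adjusted permutation p of at most 0.05. LHX3, GATA2 and NR5A1 form a red block with TSHB and CGA, against which the PAX7 row is blue, and the POMC column is blue for POU1F1 and NEUROD4 and red for TBX19.

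The genes whose levels were most like each factor over the 16 libraries were listed from 13331 named genes, as a description. For LHX3 they were MSX1 (r = 0.936), CDCA7L (0.932) and FBLN7 (0.926), and for POU1F1 they were RAB27A (0.963), KLHL1 (0.951) and INSYN2B (0.942). NEUROD4 was closest to ELAPOR1 (r = 0.937), FAM46C (0.932) and OGDHL (0.908). GATA2 was closest to SYT12 (r = 0.899), CHGA (0.880), another granin, and ETNK2 (0.872), and NR5A1 to TGFBR3L (0.947), GALNT14 (0.933) and PLIN5 (0.933). TBX19 was closest to GNAS (r = 0.897), TMEM163 (0.864) and PXMP4 (0.860), and PAX7 to PCSK2 (0.959), SYT11 (0.919) and HMGN4 (0.907).

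Other factors of the pituitary lineages and progenitors showed no call either. Of 15 with a row 14 were tested, 6 with a log2 fold change above 0 and 8 below, and the median was -0.04. With edgeR 3 were higher in HFC and 1 lower before adjustment. The log2 fold change was 4.42 (SE 1.38; exact permutation p = 0.138) for OTX2, a factor of the head ectoderm and brain, and 3.68 (SE 1.32; exact permutation p = 0.0909) for LHX2, a factor of pituicytes that is also in the posterior lobe list. For SOX9, a factor of pituitary stem cells, it was 0.97 (SE 0.34; exact permutation p = 0.0721), and for FOXO1, a factor of growth hormone cells, -0.51 (SE 0.21; exact permutation p = 0.0236). OTX2 and LHX2 were highest in HFC replicates 16 and 11, at 59.5 and 28.5 CPM for OTX2 and 127 and 51.5 CPM for LHX2, and both were at 1 CPM or more in the same 8 libraries, those with the higher posterior lobe marker sums. The early factor HESX1 (0.34, SE 0.28) did not pass even unadjusted.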

How the data were processed

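The authors prepared poly(A) libraries that keep no strand, processed the reads with FastQC and Flexbar, and used Ensembl models of Sscrofa11.1. For alignment the methods name both Bowtie2 and RSEM with STAR, and which of them made the deposited counts is not clear. They deposited whole-number counts per gene, not normalised, and a table of their own group means, folds and p-values, from which only names and positions were used. Overlapping or antisense genes cannot be told apart in such counts.

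Symbols came from that table, from a table of identifiers, and by position in the RefSeq annotation (at least 50% overlap). Positions of genes outside the deposited table are from RefSeq. LHX4 and GAL did not pass the filter, FOXL2 and INSM1 are not analysed here, and some other factors of the list are not reported here.

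The 7 factors and all lists were chosen with earlier results of these data known. Groups were taken from the labels and compared with edgeR 4.0.16 in R 4.3.3 (glmQLFit, TMM scaling, filterByExpr on group, no covariate). Single factors were also compared by exact two-sided permutation tests over 12870 assignments of the libraries. Log2 CPM used a prior count of 2. Correlations were tested two-sided with 100000 permutations (scipy 1.17.1, numpy 2.4.6) and adjusted by Benjamini-Hochberg within 42, 21 and 63 pairs. Values of r within a group or marker range are given without a test, other than those of POU1F1 and NEUROD4 with the marker sum itself. For the hormone pairs that passed, the count with an exact permutation p of at most 0.05 within both groups is given. The named pairs were those of a factor with the hormones of its lineage and every pair that passed. The 3 most similar genes per factor are named as well. The 2 ranges of posterior lobe markers were split at 100 CPM after the data were seen, and so were the family of 63 pairs and the Spearman alternative chosen. Scripts were tested on simulated data. No 2 libraries of a group were duplicates (chi-square of at least 27.1 per degree of freedom in 56 pairs). Depth limits precision most for PAX7, with 0 to 5526 counts. Each library is 1 gilt.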

Additional observations from a re-analysis of the deposited data

Results flagged for a closer look

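In HFC replicate 16 the gap to the nearest of the other 7 HFC libraries was larger than Dixon's 95% critical value for 4 genes. TBX19 was at 8.51 log2 CPM against 6.48 to 7.31 in the others, and POMC at 17.89 against 14.48 to 15.98. NR5A1 was at 5.12 against 6.90 to 8.44, and CGA at 10.72 against 13.40 to 14.75. These were 4 of 26 checks over 13 genes and both groups, where chance alone gives about 1.3. The checks are not independent, because all 4 values come from the same gland and several of these genes correlate with each other. The 4 are therefore not separate events. The cause was not tested.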

How the results depend on the processing

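The log2 fold changes of the 7 factors were compared with the main fit, 1 factor in 1 fit at a time. The direction was kept in all 62 comparisons from alternative fits and all 112 from fits without 1 library. No factor was called in any of these fits. The cut-off of 10 counts in every library dropped PAX7. DESeq2 called 6 genes, against 0 in the main test. The pairs of factor and hormone gene that passed fell from 14 to 8 with Spearman's rho and to 2 without the 4 libraries that stood apart, and ranged from 6 (without HFC replicate 16) to 18 when 1 library was left out. The pairs of factors that passed fell from 9 to 5 with total counts only, to 3 with rho and to 1 without the 4 libraries, and ranged from 2 (without HFC replicate 16) to 10, with 5 without LFC replicate 1. The causes were not tested, beyond the fewer libraries. Signs changed for POU1F1 with TSHB (0.0102 with total counts, 0.023 with a prior count of 0.5, 0.0863 centred on the marker ranges), LHX3 with GH1 (-0.16 by rho, -0.49 without the 4 libraries), LHX3 with POMC (0.24 and 0.16), GATA2 with FSHB (-0.0315 without the 4) and LHX3 with NR5A1 (-0.18 without the 4). With 1 library left out r ranged from -0.52 to 0.12 for POU1F1 with TSHB, -0.27 to 0.25 for LHX3 with GH1, -0.0205 to 0.64 with PRL, -0.0312 to 0.55 with FSHB and -0.39 to 0.45 with POMC, -0.11 to 0.50 for NR5A1 with FSHB and -0.15 to 0.51 for GATA2 with FSHB. No paired analysis was possible because the groups share no replicate number. Correction for gene length was not run.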
